A study of Mus musculus with 6 samples.

Results

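The cytosolic ribosomal protein genes encode the proteins of the large and small subunits of the ribosome that translates nuclear messages. They were followed in bulk RNA sequencing of liver from mice with NASH (nonalcoholic steatohepatitis, fat storage joined by inflammation and cell injury) and from mice with isolated steatosis (fat storage alone). Members were chosen by symbol: Rpl or Rps with a number and an optional a, x, l or y, together with Rplp0, Rplp1, Rplp2 and Rpsa. Pseudogenes and the Rps6k kinases were left out. The rule found 83 genes among 39179 gene rows, 51 of the large subunit and 32 of the small subunit, and 6 of the 83 are tissue-restricted or duplicated paralogs (Rpl3l, Rpl7l1, Rpl10l, Rpl22l1, Rpl39l and Rps27l). All 6 livers came from C57BL/6J mice (C57BL/6 in the strain label) whose feed drew 60% of its kilocalories from fat, given for 21 weeks from an age of 5 weeks. Haematoxylin and eosin staining put 3 of the sequenced livers in the NASH class and 3 in the steatosis class, and nothing in the labels says that replicates share a cage, litter or day. The classes are therefore outcomes of the same feeding and not a treatment, no lean liver was analysed here, and no label used here gives the sex.

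A ribosome holds a single copy of almost every one of these proteins, and their messages are among the most abundant in a growing cell. In mammals most of them begin with a run of pyrimidines at the transcript's first base, the terminal oligopyrimidine (TOP) tract, through which the kinase mTORC1 and the binding protein Larp1 set how much of them is translated. The genes are also known for having left many processed pseudogenes, intron-less copies of their messages inserted elsewhere in the genome, which matters for short-read counting. In liver, ribosomes are needed in large number because hepatocytes make most of the proteins of the plasma.

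The 6 libraries held between 13909238 and 18002095 counts. Mitochondrially encoded genes took 62.0% to 83.9% of them, and rRNA-like loci took 22.3% in NASH 3, 8.96% in steatosis 2 and 0.596% to 1.06% in the others. These shares did not separate the groups (two-sided exact permutation p = 0.8 for mitochondrial genes and 0.7 for rRNA-like loci). Counts left for all other genes did separate them: 2707334, 2719869 and 2185922 in NASH, against 3595795, 3378730 and 5149189 in steatosis. The 83 member rows together held 6310, 5810 and 4434 counts in the NASH livers, against 11278, 9411 and 14750 in the steatosis livers. These raw counts are not corrected for that difference in depth. Levels are given as CPM, a gene's counts relative to the TMM-scaled library size, a scaling that sets libraries to a common level over most genes. The TMM factors also separated the groups, at 0.91, 0.85 and 0.79 in NASH and 0.96, 1.12 and 1.50 in steatosis. In bulk tissue, fewer cells of a type and less RNA per cell cannot be told apart. Hepatocyte markers summed to 9787 to 11791 CPM in NASH and 11667 to 12485 CPM in steatosis, so every library carried the defining messages of liver.

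Ribosomal protein messages were lower in NASH for 4 of the 64 members that passed the low-count filter, Rps20, Rpl7, Rps14 and Rpl4, and higher for 0 (edgeR quasi-likelihood test, Benjamini-Hochberg adjusted p under 0.05 over 11375 genes). Across all genes tested, 3.33% were called lower and 1.49% higher, and the 4 members are 6.25% of those tested. At an unadjusted p under 0.05, 17 members were lower (26.6%, against 12.9% of all genes) and 0 higher (10.2% of all genes). DESeq2 called 6 members lower and 0 higher, and limma-voom also called 6 lower and 0 higher. Of all genes, DESeq2 called 4.50% lower and limma-voom 3.24%. The median log2 fold change (NASH minus steatosis) was −0.35 over the 64 members and 0.01 over all genes, with members between −1.24 and 0.40. A value below 0 was fitted for 52 of 64 members, 81.2%, against 49.4% of all genes. All 3 NASH livers lay below all 3 steatosis livers for 27 members (42.2%, against 16.2% of all genes), and above them for 1 member (1.56%, against 13.1% of all genes). The other 19 members had between 1 and 63 counts over the 6 libraries and were not tested.

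Calls were lost with fewer livers, among the members and among all genes. With each library left out in turn, 3 members were called without NASH 1, 1 without NASH 2, 2 without NASH 3, 0 without steatosis 1, 0 without steatosis 2 and 3 without steatosis 3, and at an unadjusted p under 0.05 the counts without steatosis 1 and without steatosis 2 were 11 and 15. In these 6 fits, in the same order, 1.01%, 1.084%, 1.15%, 0.656%, 0.726% and 2.60% of all genes were called lower, against 3.33% with all libraries. The members' median stayed between −0.41 and −0.33 in 5 of these fits and moved to −0.18 without steatosis 1, the library that held the highest level of 36 of the 64 members. NASH 3 and steatosis 2 hold the most rRNA-like reads. Without both of them 0 members and 0.163% of all genes were called lower, and 0 members were called higher. At an unadjusted p under 0.05, 9 members were lower and 0 higher in that fit, and the median was −0.43. No share of all genes at an unadjusted p is given for fits with fewer libraries. The 11, 15 and 9 therefore cannot be set against a background.

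Of 27 members with a mean of at least 4 CPM, 4 were called lower (14.8%, against 5.22% of all genes at that level), 18 had all NASH livers under all steatosis livers (66.7%, against 20.2%), and the median was −0.49. Of 37 members under 4 CPM, 0 were called lower (against 1.23% of all genes at that level) and 2 were lower at an unadjusted p under 0.05 (5.41%, against 8.53%), near or under the background, with 0 higher by either count. Groups were apart in that direction for 9 of the 37 (24.3%, against 11.7%), and the median was −0.14.

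**Figure D1:**
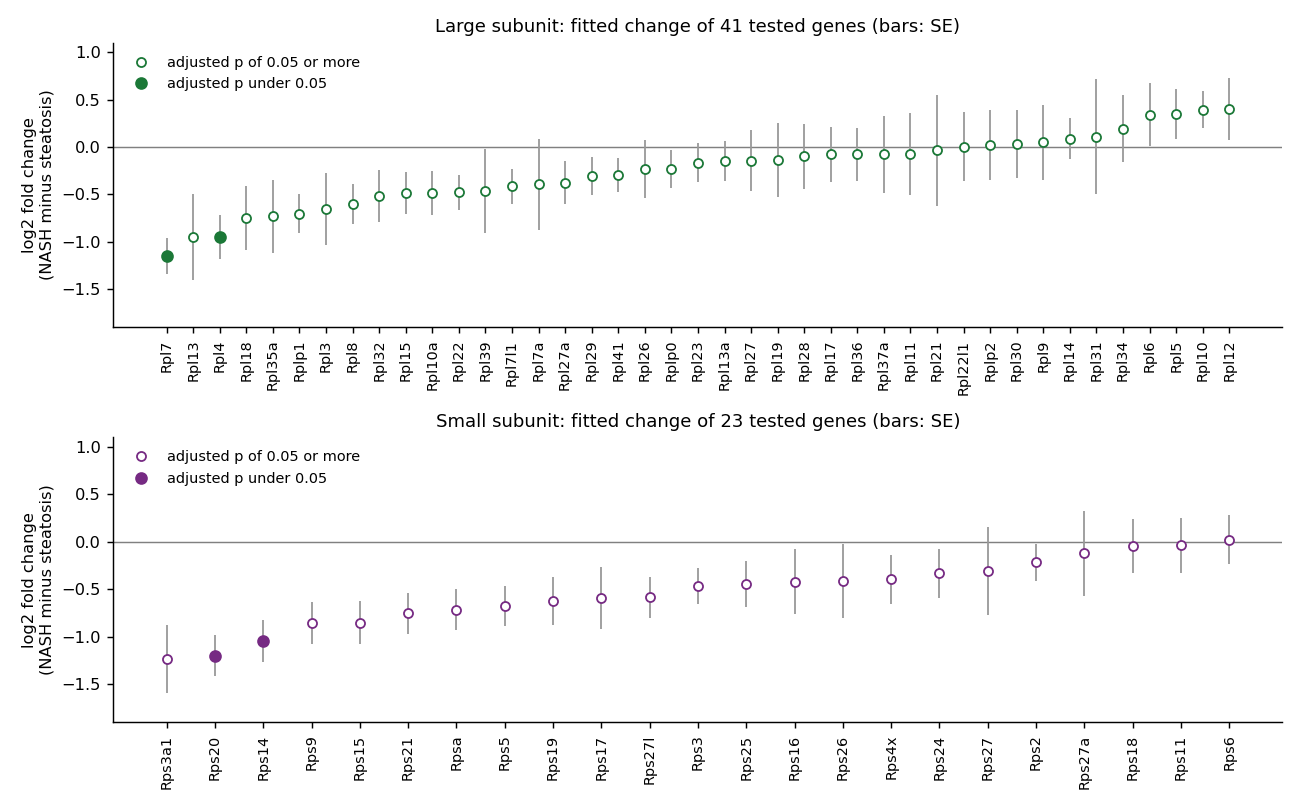
Fitted log2 fold change (NASH minus steatosis, vertical axis) with its standard error for each of 41 tested large subunit genes (above) and 23 tested small subunit genes (below), ordered by value; filled points have an adjusted p under 0.05. The filled points are Rpl7 and Rpl4 above and Rps20 and Rps14 below, and in the small subunit 22 of 23 points lie under 0.

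Rps20 is a protein of the small subunit's head that is marked with ubiquitin when ribosomes collide. Its gene, ENSMUSG00000028234, lies on the minus strand at chr4:3831334-3835665 (GRCm38, GENCODE M21). Its level was 11.8, 8.17 and 11.7 CPM in the NASH livers, against 27.8, 24.5 and 20.6 CPM in the steatosis livers. The groups did not overlap, and Rps20 fell in NASH by 1.20 on the log2 scale (SE 0.21, adjusted p = 0.0164, edgeR). The call was lost without NASH 2, steatosis 1 or steatosis 2, with adjusted p up to 0.0695, while the log2 change stayed between −1.29 and −1.03 over the 6 fits.

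Rpl7 is a large subunit protein with an RNA-binding tail, encoded by ENSMUSG00000043716 at chr1:16101295-16104662 on the minus strand. It measured 6.60, 4.96 and 6.36 CPM in the NASH livers, against 14.1, 12.9 and 12.8 CPM in the steatosis livers. Every NASH value was under 7 CPM and every steatosis value above 12 CPM, a fall of 1.15 on the log2 scale (SE 0.19, adjusted p = 0.0128, edgeR). The call was lost without steatosis 1 or steatosis 2, with adjusted p up to 0.0552, while the log2 change stayed between −1.23 and −1.02.

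Rps14 sits on the platform of the small subunit, and in humans its reduced dose underlies the anaemia of the 5q- syndrome. Its level was 14.2, 9.58 and 13.4 CPM in the NASH livers, against 30.4, 24.8 and 21.7 CPM in the steatosis livers. The groups were apart, and Rps14 fell by 1.05 on the log2 scale (SE 0.22, adjusted p = 0.0282, edgeR). The call held only without steatosis 3 and was lost without each of the other 5 libraries, with adjusted p up to 0.106, while the log2 change stayed between −1.15 and −0.87.

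Rpl4, whose long internal loop lines the tunnel through which the new protein leaves the ribosome, was the most abundant member by CPM. Its gene, ENSMUSG00000032399, lies on the plus strand at chr9:64173375-64178666. It measured 41.3, 28.6 and 41.8 CPM in the NASH livers, against 81.9, 62.8 and 70.9 CPM in the steatosis livers. Rpl4 fell by 0.95 on the log2 scale (SE 0.23, adjusted p = 0.0465, edgeR), with no overlap between the groups. That p was close to the threshold. In each of the 6 fits that leave out 1 library Rpl4 lost its call, with adjusted p between 0.0751 and 0.153, while the log2 change stayed between −1.04 and −0.77.

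**Figure D2:**
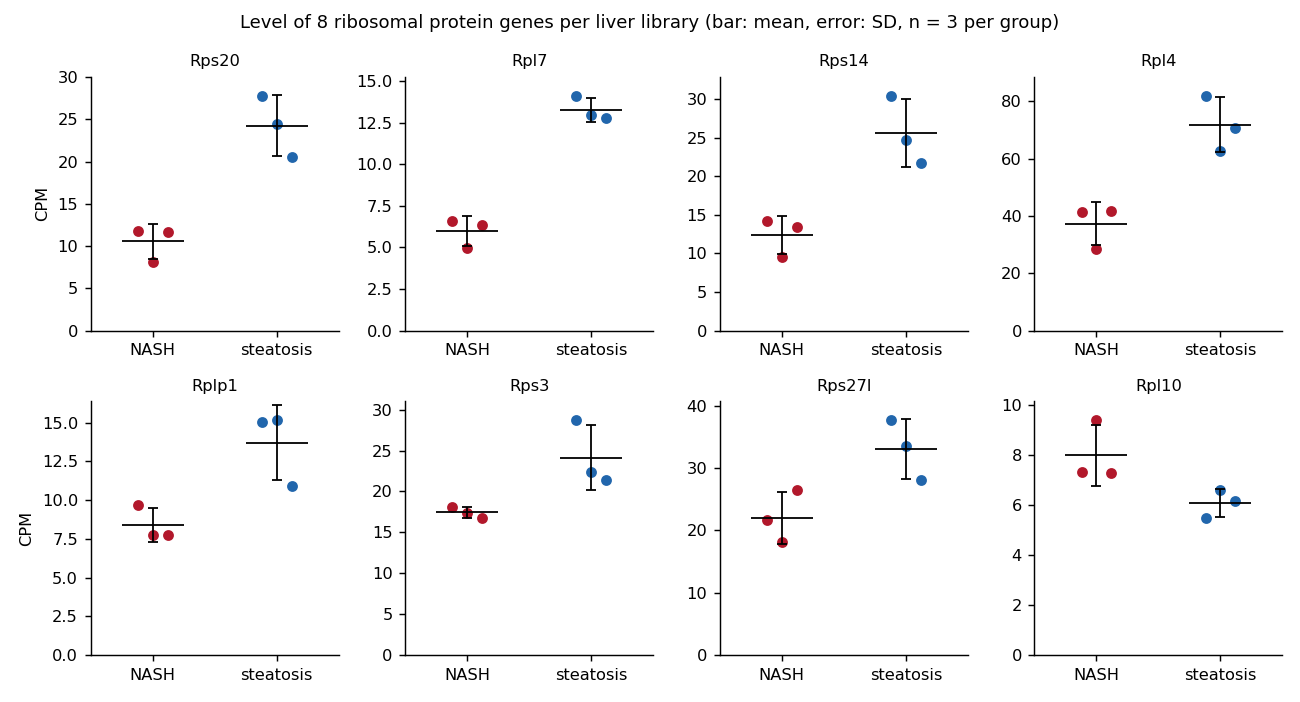
CPM (vertical axis, from 0) of 8 members in the 3 NASH and 3 steatosis livers; each point is 1 library, the horizontal bar the mean and the error bar the SD. In the upper row, the 4 called genes, every NASH point is under every steatosis point; in the lower row the same holds for Rplp1, Rps3 and Rps27l, which were not called, and Rpl10 has its NASH points on top.

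Among other small subunit proteins, most fitted values were below 0 and none passed the test. Rps3a1, a platform protein near the exit of the message, had the lowest fitted value of any member, −1.24 (SE 0.36, adjusted p = 0.0775, edgeR). Its own row held few counts, 1.60, 0.67 and 0.73 CPM in the NASH livers, against 2.34, 2.16 and 2.63 CPM in the steatosis livers. Rps15, a head protein that human cells need to export the immature subunit from the nucleus, measured 24.7, 15.7 and 21.0 CPM in the NASH livers, against 42.8, 32.8 and 35.3 CPM in the steatosis livers. The groups did not overlap, with a log2 difference of −0.85 (SE 0.22) and an adjusted p of 0.0563, just above 0.05 and so not called. DESeq2 and limma-voom both called Rps15 lower. Rps9, which lines the entry channel of the message and is outside the naming rule (picked after its values were seen), was at −0.86 (SE 0.22, adjusted p = 0.0532) and was also called lower by DESeq2 and limma-voom.

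Rpsa, also known as the laminin receptor precursor, averaged 4.56 ± 0.57 CPM in NASH and 7.54 ± 1.51 CPM in steatosis (SD, n = 3 each). Rps3, a protein of the message's entry channel that also acts in DNA repair, averaged 17.4 ± 0.63 CPM in NASH and 24.1 ± 3.98 CPM in steatosis. Rps19, the gene most often mutated in human Diamond-Blackfan anaemia, averaged 2.36 ± 0.40 CPM in NASH and 3.68 ± 0.62 CPM in steatosis. All 3 genes had NASH livers under all steatosis livers, with log2 differences of −0.72, −0.47 and −0.63, and none was called (edgeR adjusted p = 0.0883, 0.168 and 0.169). Rps4x, the X-linked form of a small subunit protein, was at −0.40 (SE 0.26, adjusted p = 0.396) with overlapping groups. Rps6, the substrate of the S6 kinases downstream of mTORC1, was at 0.02 (SE 0.26, adjusted p = 0.968), with 2.29, 2.81 and 2.45 CPM in the NASH livers, against 2.90, 1.86 and 2.67 CPM in the steatosis livers.

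In the large subunit, the 3 proteins of the stalk that recruits elongation factors did not share a value. Rplp1 measured 9.66, 7.77 and 7.72 CPM in the NASH livers, against 15.03, 15.2 and 10.9 CPM in the steatosis livers, with groups apart and a log2 difference of −0.70 (SE 0.21, adjusted p = 0.0771). Rplp0, which anchors the stalk, was at −0.23 (SE 0.20, adjusted p = 0.534), and Rplp2, the partner of Rplp1, at 0.02 (SE 0.37, adjusted p = 0.979) on 8 to 24 counts per library. Rpl8, a protein close to the peptidyl transferase centre, averaged 34.1 ± 2.16 CPM in NASH and 51.9 ± 9.76 CPM in steatosis. Its groups were apart, with a log2 difference of −0.61 (SE 0.21, adjusted p = 0.119). Rpl3, another protein of that centre, was at −0.65 (SE 0.38, adjusted p = 0.338), and Rpl13 at −0.95 (SE 0.46, adjusted p = 0.242) on 3 to 43 counts per library. Rpl13a, which in human cells also silences inflammatory messages after it is released from the ribosome, was at −0.15 (SE 0.21, adjusted p = 0.718).

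The highest fitted values were also in the large subunit, and none was called. Rpl10, a protein that joins the subunit late in the cytoplasm, measured 7.30, 9.38 and 7.26 CPM in the NASH livers, against 5.48, 6.59 and 6.16 CPM in the steatosis livers. It was the single member with all NASH livers above all steatosis livers, at 0.39 (SE 0.20, adjusted p = 0.258). Rpl12, at the base of the stalk, was at 0.40 (SE 0.33, adjusted p = 0.499), Rpl6 at 0.34 (SE 0.33, adjusted p = 0.575) and Rpl34 at 0.19 (SE 0.35, adjusted p = 0.790). Rpl5 and Rpl11 travel together with 5S rRNA and, when unused, bind and block Mdm2, the ligase that degrades p53. Rpl5 was at 0.35 (SE 0.26, adjusted p = 0.469) and Rpl11 at −0.08 (SE 0.43, adjusted p = 0.942), both with overlapping groups. Rpl5 shares 1047 exon positions with other annotated genes, among them Fam69a on the opposite strand, whose reads could not be told apart from its own because the strand setting of the counting is not given.

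The muscle and testis paralogs had almost no counts. Rpl3l, the form of striated muscle, had 0, 2 and 2 counts in the NASH livers, against 0, 5 and 6 in the steatosis livers. The testis forms Rpl10l and Rpl39l had 1 and 3 counts over the 6 libraries, all of them in NASH 2. Rps27l, a p53-induced paralog of Rps27, was well expressed at 21.7, 18.1 and 26.4 CPM in the NASH livers, against 37.7, 33.6 and 28.1 CPM in the steatosis livers. Its groups were apart, at −0.59 (SE 0.21, adjusted p = 0.134). Rps27 itself had 0.617 ± 0.26 CPM in NASH and 0.769 ± 0.28 CPM in steatosis, at −0.31 (SE 0.46, adjusted p = 0.737), and 2.5% of the 150-base windows of its transcript were found in no other gene. Its near-identical retrocopy Rps27rt, outside the rule, held 198, 186 and 143 counts in the NASH livers, against 343, 299 and 389 in the steatosis livers. Rpl22, which also binds RNA outside the ribosome, averaged 9.60 ± 0.84 CPM in NASH and 13.4 ± 1.50 CPM in steatosis, at −0.48 (SE 0.18, adjusted p = 0.148). Its paralog Rpl22l1 was at 0.00 (SE 0.37, adjusted p = 0.997) and Rpl7l1, the paralog of Rpl7, at −0.42 (SE 0.18, adjusted p = 0.208). Of the 3 paralogs tested, 0 were called by edgeR, DESeq2 or limma-voom, and 2 were lower and 0 higher at an unadjusted p under 0.05 in edgeR. Rpl39 was at −0.46 (SE 0.44, adjusted p = 0.576), Rpl36a was not tested, and its retrogene Rpl36al, outside the rule, was at −0.14 (SE 0.24, adjusted p = 0.776). Rps4l, annotated as a transcribed pseudogene and outside the rule, was at −0.27 (SE 0.28, adjusted p = 0.611).

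Summed over the 83 rows, the level was 438, 389 and 403 CPM in the NASH livers, against 695, 564 and 547 CPM in the steatosis livers. The groups did not overlap, with means of 410 ± 25.5 CPM in NASH and 602 ± 80.8 CPM in steatosis (SD, n = 3 each). The difference of the log2 sums was −0.55, with a two-sided exact permutation p of 0.1, the smallest that 3 against 3 can give. As a share of the counts outside mitochondrial and rRNA-like rows, the members took 0.233%, 0.214% and 0.203% in the NASH livers, against 0.314%, 0.279% and 0.286% in the steatosis livers.

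The balance of the subunits was compared within each library. The log2 ratio of summed large over summed small subunit counts, which no library scaling can move, was 0.41, 0.64 and 0.48 in the NASH livers, against 0.21, 0.22 and 0.32 in the steatosis livers. The groups did not overlap, with a mean difference of 0.26 and an exact permutation p of 0.1. Among tested members the median log2 fold change was −0.17 over 41 large subunit genes and −0.47 over 23 small subunit genes. In each subunit 2 were called lower, 4.88% of the large and 8.70% of the small, against 3.33% of all genes. The share of the large subunit is near that of all genes. NASH livers lay under all steatosis livers for 13 of the 41 (31.7%) and for 14 of the 23 (60.9%), against 16.2% of all genes.

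**Figure D3:**
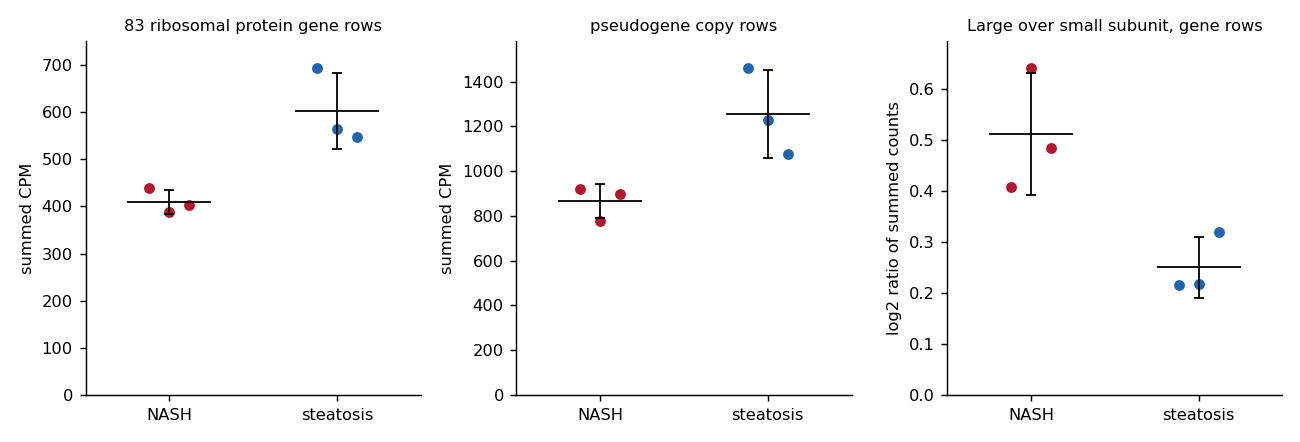
Per library, with mean and SD: the CPM summed over the 83 member rows (left), the CPM summed over the 367 rows of their pseudogene copies (middle) and the log2 ratio of large over small subunit counts (right). In each panel the 3 NASH points and the 3 steatosis points do not overlap, NASH being under steatosis for both sums and above it for the ratio.

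Most of the counts held by these genes and their pseudogenes together were in the pseudogene rows. A copy is taken here as a row annotated or named as a pseudogene that shares at least 1 window of 150 bases, the read length, with a member's transcript at 2 or fewer mismatches. By that rule 367 rows were copies, and 68 members had between 1 and 32 of them. The copies held 13258, 11633 and 9870 counts in the NASH livers, against 23738, 20513 and 28969 in the steatosis livers, which is 1.96 to 2.23 counts in a copy for every count in a member row. Of all counts in members and copies, member rows took 31.0% to 33.3% in the NASH livers, against 31.4% to 33.7% in the steatosis livers (exact permutation p = 0.8). No source used here says how the authors' counting treated reads that match several places.

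The sequences of Rpl13a and of its copy Gm11478 show how close these pairs are. Rpl13a lies at chr7:45125558-45128761 and Gm11478 at chr11:86630428-86631026, both on the minus strand of GRCm38. The copy held 699, 537 and 598 counts in the NASH livers, against 1105, 1044 and 1642 in the steatosis livers. Rpl13a's own row held 250, 194 and 129 counts in the NASH livers, against 282, 277 and 347 in the steatosis livers. In the stretch below, coding in Rpl13a, the capitals mark the 2 positions at which they differ.
Rpl13a: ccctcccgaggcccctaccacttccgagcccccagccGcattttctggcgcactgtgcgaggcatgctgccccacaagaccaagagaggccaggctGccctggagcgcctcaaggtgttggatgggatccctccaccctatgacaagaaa
Gm11478: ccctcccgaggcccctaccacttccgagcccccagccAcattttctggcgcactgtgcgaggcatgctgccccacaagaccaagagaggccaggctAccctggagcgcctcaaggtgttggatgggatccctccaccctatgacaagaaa
Rpl28 and its copy Rpl28-ps1, at chr7:4792874-4795066 and chr1:128038569-128038982 on the plus strand, hold the same 150 bases with 0 differences, so a read from that stretch matches both places equally well.
Rpl28 and Rpl28-ps1: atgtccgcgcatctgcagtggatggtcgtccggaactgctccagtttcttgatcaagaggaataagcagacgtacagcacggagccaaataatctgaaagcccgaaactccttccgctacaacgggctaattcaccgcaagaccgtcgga
Rpl28-ps1 held 607, 535 and 488 counts in the NASH livers, against 1039, 881 and 1152 in the steatosis livers. Rpl28's own row held 31, 42 and 20 counts in the NASH livers, against 35, 25 and 95 in the steatosis livers, and its fitted value was −0.10 (SE 0.34, adjusted p = 0.897).

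Members differed widely in how the counts of a member and its copies were split. Of the 83, 31 had under 10% of the combined counts in their own row, with Rpl24 lowest at 0.754%, named, like Rpl28, after its values were seen. The 25 members with at least 80% in their own row include Rps20, Rpl4, Rpl8, Rps3 and Rps9, which had no copy row at all, and Rps14 and Rps15. Rps20, Rpl4 and Rps9 each share windows with 1 annotated pseudogene that has no row in the counts. Of the 25, 21 were tested, 3 were called lower (against 3.33% of all genes), and their median log2 fold change was −0.51. Of the 44 members with under 20%, 29 were tested and 0 were called by edgeR, DESeq2 or limma-voom. In edgeR 3 of the 29 were lower at an unadjusted p under 0.05, not above the 12.9% of all genes. The median of the 29 was −0.33. Rpl7, with 40.3% in its own row, belongs to neither set. The split counts pseudogene copies alone, and 7 of the 25 also share windows with a row that is no pseudogene. Rplp2 is one of them, with 10, 17 and 8 counts in its own row in the NASH livers, against 15, 12 and 24 in the steatosis livers. Rows sharing its windows held 235, 237 and 185 counts in the NASH livers, against 513, 433 and 541 in the steatosis livers.

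**Figure D4:**
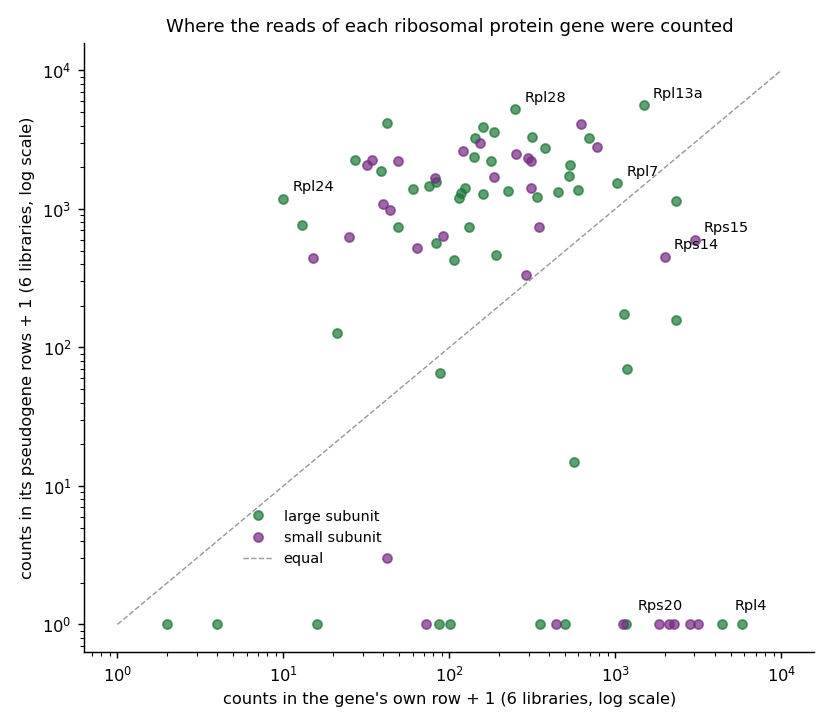
Each point is 1 of 83 members: counts in its own row over the 6 libraries (horizontal, log scale, plus 1) against counts in its pseudogene copies (vertical, log scale, plus 1), by subunit. Rpl24, with 9 own and 1185 copy counts, lies far above the dashed line of equality, and Rps20 and Rpl4 lie on the bottom edge, with 0 copy counts.

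Levels per length, which allow genes to be compared with each other, are given beside the share of counts in the member's own row. Per kilobase of exon, Rps15 had the highest level, 32.5 CPM per kilobase in NASH and 58.7 in steatosis, followed by Rps27l with 27.0 in NASH and 40.6 in steatosis and Rpl8 with 25.1 in NASH and 38.2 in steatosis. The lowest tested members were Rpl21 with 0.18 CPM per kilobase in both NASH and steatosis, Rpl35a with 0.219 in NASH and 0.364 in steatosis and Rpl18 with 0.235 in NASH and 0.397 in steatosis. Rps15, Rps27l and Rpl8 had 83.4%, 100% and 100% of their counts in their own row, while Rpl21, Rpl35a and Rpl18 had 4.07%, 8.68% and 15.02%. The order of these levels is therefore an order of rows and not of messages in the cell.

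Of 146 copies tested, 6 were called lower (4.11%, near the 3.33% of all genes) and 0 higher by edgeR. At an unadjusted p under 0.05, 64 copies were lower (43.8%, against 12.9% of all genes) and 0 higher. DESeq2 called 14 lower and 0 higher, against 4.50% of all genes lower. In limma-voom 5 were lower and 0 higher, near the 3.24% of all genes lower. The copies' median log2 fold change in edgeR was −0.57, and 133 lay below 0. The called copies, named because they are few and after their values were seen, were Rps3a3, Rps12-ps3, Rpl7a-ps11, Rps15-ps2, Gm6274 and Rpl17-ps10. Rps12-ps3, for instance, measured 7.23, 5.56 and 7.72 CPM in the NASH livers, against 15.3, 12.4 and 13.1 CPM in the steatosis livers, with a log2 difference of −0.996 (SE 0.20, adjusted p = 0.0243). Summed over the 367 copies the level was 865 ± 75.9 CPM in NASH and 1256 ± 195 CPM in steatosis (SD, n = 3 each, exact permutation p = 0.1).

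With each copy's counts added to its member's row, an alternative chosen after the data were seen, 79 of the 83 members could be tested and 11 were called lower and 0 higher (edgeR, with 45 lower and 0 higher at an unadjusted p under 0.05, 57.0% against 13.0% of all genes lower). This is 13.9% of those tested, against 3.45% of all genes called lower and 1.48% called higher in that fit. The median was −0.56, 78 of 79 lay below 0, and NASH livers were under all steatosis livers for 57 members (72.2%, against 16.2% of all genes) and above them for 0 (13% of all genes). The small subunit held 8 of the calls, among them Rps3a1, Rps12, Rps13, Rps14, Rps15, Rps20 and Rps28. The large subunit held 3: Rpl4, Rpl7 and Rpl35a. The median was −0.65 over 31 small subunit members and −0.41 over 48 large subunit members, and NASH livers were under all steatosis livers for 28 of the 31 and 29 of the 48. The log2 ratio of large over small subunit counts was 0.82, 0.95 and 0.84 in the NASH livers, against 0.65, 0.64 and 0.68 in the steatosis livers (difference 0.21, exact permutation p = 0.1).

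Several members called with copies added, named here for that call, could not be tested in their own rows. Rps28, among the smallest proteins of the ribosome, summed with its copies to 7.82, 4.29 and 6.15 CPM in the NASH livers, against 16.6, 12.5 and 11.1 CPM in the steatosis livers, a fall of 1.14 (SE 0.26, adjusted p = 0.0350). Rps12 summed to 17.8, 12.9 and 16.6 CPM in the NASH livers, against 31.5, 26.4 and 24.9 CPM in the steatosis livers, a fall of 0.81 (SE 0.20, adjusted p = 0.0470). Both were too low to test alone, as was Rps13 at −0.88 (SE 0.22, adjusted p = 0.0492). Rps3a1, in contrast, was tested in its own row and not called there. With its copies it summed to 14.4, 10.4 and 11.1 CPM in the NASH livers, against 27.4, 21.6 and 22.3 CPM in the steatosis livers. That was a fall of 0.99 (SE 0.20, adjusted p = 0.0261). The 5 members with the highest fitted values in their own rows gave lower ones with copies added: Rpl10 −0.07, Rpl12 −0.42, Rpl5 −0.31, Rpl6 −0.12 and Rpl34 −0.02, none called. Rps6 was at −0.65 (SE 0.20, adjusted p = 0.0861) with copies added.

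These calls were also lost with fewer livers. The 11 became 4 without NASH 1, 0 without NASH 2 and 1 without NASH 3. They became 0 without steatosis 1, 0 without steatosis 2 and 5 without steatosis 3. The smallest count of members lower at an unadjusted p under 0.05 in these 6 fits was 28. In the same order 1.084%, 1.09%, 1.17%, 0.665%, 0.735% and 2.55% of all genes were called lower, against 3.45% with all libraries. The members' median stayed between −0.61 and −0.48 in 5 of these fits and was −0.40 without steatosis 1. With copies added, steatosis 1 held the highest level of 70 of the 79 members and NASH 2 the lowest of 42. DESeq2 called 13, limma-voom 10, and scaling to the counts of other genes left 4. Of all genes, 4.55%, 3.36% and 1.95% were called lower in these 3 settings. Without NASH 3 and steatosis 2 together 0 were called, with 0.157% of all genes called lower. In that fit 24 were lower at an unadjusted p under 0.05 and the median was −0.56. For fits with fewer libraries no share of all genes at that p is given, so the 28 and 24 have no background here.

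**Figure D5:**
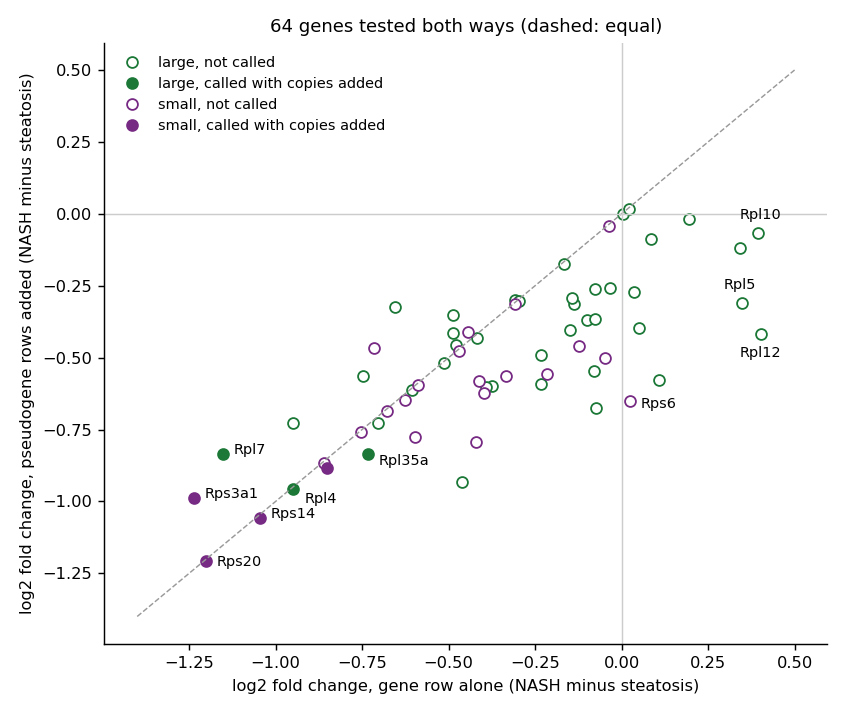
Log2 fold change (NASH minus steatosis) of 64 members from the member row alone (horizontal) and with the counts of its pseudogene copies added (vertical), by subunit; filled points are called lower with copies added. Points lie on the dashed line of equality where the counts hold no copy row, as for Rps20 and Rpl4, and Rpl12, Rpl5 and Rpl10, to the right of 0, lie under 0 on the vertical axis.

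Exon length, merged over all annotated transcripts of a gene, was looked at beside these values. It can exceed the length of any single message. Of 611 protein-coding genes with less than 1500 bases of exon and outside the members, 63 were called lower (10.3%) and 4 higher, with a median of −0.27. Of 9902 with 1500 bases or more, 285 were called lower (2.88%) and 154 higher, with a median of 0.03. The 19 tested members under 1500 bases had a median of −0.42 and the 45 tested members at or above it a median of −0.33. The 4 called members all have 1500 bases or more of merged exon. The coding transcript used here to look for shared windows has 597 bases in Rps14, 1163 in Rpl7, 1538 in Rpl4 and 3706 in Rps20. DESeq2 and limma-voom each called 1 member with a shorter merged exon lower. For such shorter members edgeR gave 6 lower and 0 higher at an unadjusted p under 0.05. This is 31.6% of the 19, near the 28.5% of the 611 other genes under 1500 bases. Groups were apart, lower in NASH, for 42.1% of the 19, against 32.1% of the 611, and 100% lay below 0, against 66.9%. Of the 45 longer members 24.4% were lower at that p, against 11.4% of the 9902 genes. Length's part in the members' values was not tested.

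The start of the transcript was read for the 63 members with an entry in RefSeq's promoter set (GRCm38.p6). A tract was taken as a C followed by at least 4 further C or T, on the gene's own strand. It was counted at the start where that C was the annotated first base. A run that covered the first base without meeting this was not counted there. A tract at the start was present for 13 of 63 members (20.6%), against 813 of 27025 genes (3.01%) and 0 of 69 mitochondrial ribosomal protein genes. Allowing the tract to begin within 5 bases of the start, on either side, gave 29 of 63 members (46.0%), against 21.2% of all genes. The windows below hold 15 bases before and 15 from the annotated start, and capitals mark a tract that begins within 5 bases of it on either side. Rps6 and Rps21 carry it at the start (for Rps21 at the first of its annotated starts and not at the other), in Rpl12 it begins just after the start, and Rpl4 has a run of the same kind only farther upstream, left in lower case, that meets neither condition.
Rps6, chr4:86857353-86857382, minus strand: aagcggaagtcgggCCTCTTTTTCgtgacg
Rps21, chr2:180257364-180257393, plus strand: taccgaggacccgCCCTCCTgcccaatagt
Rpl12, chr2:32961697-32961726, plus strand: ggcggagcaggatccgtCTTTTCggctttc
Rpl4, chr9:64173372-64173401, plus strand: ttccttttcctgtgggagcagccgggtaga
Among these 4, Rpl4 was called lower, Rps21, a small subunit protein, was at −0.75 (SE 0.22, adjusted p = 0.0731), and Rps6 and Rpl12 were at 0.02 and 0.40. The window was read at annotated starts, which can lie some bases from the start used in liver, so a gene without a counted tract is one with no such run at that position. Rps20, Rpl7 and Rps14 had no entry.

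Rack1 and Fau encode ribosome-bound or ribosomal proteins, are outside the symbol rule and were not called. Rack1, the scaffold on the small subunit's head, was at −0.41 (SE 0.22, adjusted p = 0.295). Fau, which makes a small subunit protein fused to a ubiquitin-like domain, was at 0.62 (SE 0.33, adjusted p = 0.298) on 15 to 35 counts per library, while its copy Gm9843 held 362, 274 and 264 counts in the NASH livers, against 732, 635 and 755 in the steatosis livers.

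Of 74 mitochondrial ribosomal protein genes tested, 4 were called lower and 0 higher by edgeR, with 19 lower and 1 higher at an unadjusted p under 0.05 and a median of −0.29. The calls were Mrpl20 (−1.14), Mrpl38 (−1.77), Mrpl11 (−0.98) and Mrpl34 (−1.04). Of 36 proteasome subunits tested, 3 were called lower, Psmb4 (−1.06), Psmd8 (−0.83) and Psmb1 (−0.79), and 0 higher, also 0 at an unadjusted p under 0.05, with a median of −0.21. DESeq2 called 5 and limma-voom 3 of the mitochondrial genes lower, and each called 3 of the proteasome genes lower, with 0 higher in either list. NASH livers lay under all steatosis livers for 29 of the 74 and 16 of the 36, and above them for 2 and 0. Values below 0 were fitted for 57 of the 74 and 28 of the 36. Of all genes, 3.33% were called lower, 16.2% had groups apart in that direction and 49.4% lay below 0. Lower values were therefore not particular to the cytosolic members.

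Of 104 ribosome biogenesis genes tested, 1 was called lower and 2 higher, with a median of 0.14. DESeq2 called 0 lower and 3 higher, and limma-voom 0 lower and 1 higher. Heatr1, a part of the complex that starts small subunit assembly, measured 10.8, 6.83 and 13.0 CPM in the NASH livers, against 4.74, 5.39 and 4.79 CPM in the steatosis livers, and rose by 1.03 (SE 0.25, adjusted p = 0.0436). Utp20, of the same complex, rose by 0.86 (SE 0.21, adjusted p = 0.0458). Nhp2, of the particles that modify rRNA, fell by 0.86 (SE 0.22, adjusted p = 0.0496). Of 36 initiation factors tested, 1 was called lower, Eif2s3x, a subunit of the factor that brings the first tRNA (−0.84, SE 0.19, adjusted p = 0.0394), and 0 higher, with 3 higher at an unadjusted p under 0.05, 1 higher by DESeq2, 0 higher by limma-voom and a median of −0.16. None of these 11 called genes kept its call in all 6 fits that leave out 1 library: Mrpl20 kept it in 3, Psmb4 in 2, Heatr1 and Mrpl38 in 1, and the other 7 in 0.

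For 4 further lists no gene was called in either direction by edgeR, DESeq2 or limma-voom. The first holds 26 genes listed as elongation factors or TOP messages. Of the 20 with a promoter entry, 2 had a counted tract at the start (10%, against 3.01% of all genes). In 5 a tract began within 5 bases of it (25%, against 21.2%). The median of the 26 was −0.29, and edgeR gave 5 lower and 0 higher at an unadjusted p under 0.05. Among 31 genes of translation control, such as the mTOR kinase and its partners, the median was 0.06, with 0 lower and 6 higher at that p. The 21 genes listed under ribosome quality control had a median of 0.19, with 0 lower and 6 higher. The 10 noncoding hosts of small nucleolar RNAs had a median of 0.30, with 0 lower and 1 higher. Of all genes, 12.9% were lower and 10.2% higher at that p.

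Other cell types were looked for with marker lists, summed per library. Macrophage markers summed to 41.7 to 69.8 CPM in NASH and 44.3 to 47.5 CPM in steatosis, and T and NK cell markers to 0.536 to 1.54 CPM in NASH and 1.002 to 1.92 CPM in steatosis. Stellate cell markers summed to 31.7 to 39.8 CPM in NASH and 49.8 to 53.8 CPM in steatosis, with 1 of 7 called lower, and cholangiocyte markers to 12.4 to 23.3 CPM in NASH and 23.9 to 42.0 CPM in steatosis, with 0 of 3 called. In the stellate and cholangiocyte lists the groups did not overlap, as for the members' sum, and hepatocyte markers overlapped by little. Endothelial, B cell, neutrophil, erythroid and proliferation markers overlapped between the groups, and no marker was at 0 in all libraries. The part of these cells in the members' values was not tested.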

How the data were processed

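Liver RNA selected for polyA was sequenced as paired 150-base reads in 6 libraries, per the labels' protocols. The submitters' processing notes name TopHat2, HTSeq and the mouse builds mm10 and GRCm38, without versions. The deposited values are whole-number counts per gene made by the authors. Strand setting, annotation release and handling of reads with several matches are not stated, and GENCODE M21 was used here for positions and transcripts. The 1572 rows without a symbol could not be members.

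Counts were fitted with edgeR 4.0.16 in R 4.3.3 (TMM, filterByExpr, quasi-likelihood test), tested on simulated data first, with Benjamini-Hochberg adjustment over 11375 genes at 0.05. Adjusted p-values in the text are from this fit. DESeq2 1.42.0, limma-voom (limma 3.58.1), other scalings and filters, left-out libraries and added pseudogene rows were alternatives. Sums were compared by two-sided exact permutation. Labels do not say that replicates are independent beyond being separate samples, so p-values measure the spread between these libraries. Members and lists were chosen with earlier results of these data known. Named members are those called, the 5 highest and 5 lowest fitted values and a fixed panel. The replicate numbers did not pair the samples. Some results on single genes are not reported here.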

Additional observations from a re-analysis of the deposited data

How the results depend on the processing

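All results counted here kept 0 members called higher under every alternative run, and the members' median stayed below 0, the summed level stayed lower in NASH and the large over small ratio stayed higher in NASH. Members called lower, 4 in the reported fit, numbered 11 with no filter, 0 without NASH 3 and steatosis 2 (the 2 libraries with most rRNA-like reads), 7 with same-named pseudogene rows added and 11 with sequence-sharing pseudogene rows added, where the median was −0.56. Leaving out 1 library gave 0 to 3 members lower, a median between −0.41 and −0.18, a summed log2 difference between −0.59 and −0.43 and a ratio difference between 0.20 and 0.31. With copies added, 11 calls became 6 with DESeq2 size factors, 4 when scaled to counts of other genes, 0 without NASH 3 and steatosis 2, and 0 to 5 with 1 library left out. Over all genes, 379 lower became 222 when scaled to counts of other genes, 912 with no filter, 19 without NASH 3 and steatosis 2, and 77 to 298 with 1 library left out. The 169 higher became 535 with no filter, 300 with DESeq2, 17 without NASH 3 and steatosis 2, and 29 to 170 with 1 library left out. Fewer libraries enter the last settings, and the cause of the other changes was not tested. Scaling to counts of other genes moved the median of all genes to 0.12 and that of the members to −0.24. The replicate numbers did not pair the samples (correlations 0.03, −0.02 and 0.07), and a replicate block gave 6 members lower, 9 with copies added, 313 genes lower and 153 higher, a members' median of −0.35, a summed difference of −0.55 and a ratio difference of 0.26.

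The following log2 fold changes turned sign. Rpl21 was at 0.0074 with upper-quartile factors, 0.074 scaled to other genes, 0.0095 with DESeq2, 0.043 with the replicate block and between −0.66 and 0.37 with 1 library left out. Rpl11 was at 0.037 scaled to other genes, 0.13 without NASH 3 and steatosis 2, and between −0.53 and 0.29 with 1 left out. With no filter Rplp2, Rps6 and Rpl22l1 were at −0.011, −0.011 and −0.030, and with 1 left out Rplp2 lay between −0.24 and 0.16, Rps6 between −0.14 and 0.15 and Rpl22l1 between −0.17 and 0.22. With 1 left out Rpl36al lay between −0.33 and 0.050 and Rps4l between −0.47 and 0.040. Without NASH 3 and steatosis 2 Rps6 was at −0.12 and Rpl13a at 0.0090. With same-named rows added Rpl34, Rpl10 and Rps6 were at −0.027, −0.064 and −0.67. With sequence-sharing rows added Rpl34 was at −0.018, Rpl6 at −0.12, Rpl5 at −0.31, Rpl10 at −0.067, Rpl12 at −0.42, Rps6 at −0.65, Rpl22l1 at −0.0019 and Fau at −0.65. The 19 untested members had 1 to 63 counts each in their own rows, and 15 of them could be tested with copies added.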
